A study of Oryza sativa with 4 samples.

Results

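The circadian clock genes *OsLHY*, *OsGI*, *OsPRR1* and *DTH7* (also named *OsPRR37*) were examined in rice leaves under a short and a long photoperiod. They were taken by name from the platform's table of probe sets and genes, which gives 6 probe sets for the 4 genes, of 57194 probe sets without controls and 17905 named genes on the array. *OsLHY* (chromosome 8 in the RefSeq assembly ASM3414082v1) and *DTH7* (chromosome 7) have 2 probe sets each, and *OsGI* (chromosome 1) and *OsPRR1* (chromosome 2) have 1 each. A probe set is a group of short probes for 1 transcript, and its value is a linear signal intensity in arbitrary units.

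Leaves were collected at 35 days of age from wild type Zhonghua11, which is a japonica cultivar, and from *hd1-3*, a loss-of-function line whose *Hd1* gene carries deletions and insertions. Both genotypes were grown at 28 °C under SD condition (light for 11.5 h, dark for 12.5 h) or LD condition (light for 15 h, dark for 9 h), and each of the 4 groups was hybridised to 1 Affymetrix Rice Genome Array. Leaves were taken 3 h after light under SD and 5 h after light under LD condition, so that 8.5 h and 10 h of light were still to come and 15.5 h and 14 h had passed since the last light period ended. Day length and hour of collection therefore cannot be told apart in any difference between SD and LD given here. The 4 groups hold 1 mutant line and 1 cultivar, and the sources used here do not say whether plants were pooled.

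In plants the clock is a loop of transcription factors that repress each other at different hours. LHY, a MYB factor of the early morning, represses genes of later hours such as the pseudo-response regulators and GIGANTEA, and the pseudo-response regulators in turn repress *LHY*, as worked out mostly in *Arabidopsis*. In rice leaves the clock gates the photoperiodic flowering genes: *OsGI* acts upstream of *Hd1*, and *DTH7* represses *Ehd1* and delays flowering under LD condition.

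The arrays had median signals of 63.7 to 69.7, and 24026 to 24717 probe sets on each reached 100, below which signals are noisy. Of 6 leaf genes looked up, 1 had a named probe set, and the root gene *RCc3* had none. This leaf gene, the chlorophyll a/b binding protein gene *CAB2R*, had signals of 38091 to 49297 over 2 probe sets. The shoot meristem gene *OSH1* stayed below 100 on every array. Of 3 floral MADS-box genes, *OsMADS3* and *OsMADS6* stayed below 100, while wild type signals of *OsMADS1* were 71.7 (SD) and 21.9 (LD) and those of *hd1-3* were 296 (SD) and 237 (LD). *Hd1*, the mutated gene, had wild type signals of 142 (SD) and 89.3 (LD) and mutant signals of 60.5 (SD) and 5.40 (LD).

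*OsLHY* had the higher signal under SD condition, and *OsGI*, *OsPRR1* and *DTH7* the higher signal under LD condition, and this held for both genotypes. For each of these genes, both SD arrays lay on one side of both LD arrays on the probe set with the highest mean signal. The difference between the day lengths was tested with limma on log2(signal + 1) with genotype as a term, so that the 2 arrays of a day length, 1 of each genotype, served as its repeats. All 4 genes passed at a Benjamini-Hochberg adjusted p under 0.05, 1 of them higher under SD and 3 higher under LD condition. Over all 28133 probe sets tested, 13.6% passed, 6.53% higher under SD and 7.09% higher under LD condition. In the ranges of mean signal of *OsLHY*, *OsGI*, *DTH7* and *OsPRR1*, in that order, 34.4%, 33.7%, 24.5% and 13.2% passed. The 4 genes were chosen with earlier results of these data known, so their count is not independent of these data. With arrays scaled to the median of bright probe sets, 60.5% of the calls were higher under SD condition, against 47.9% on the deposited signals. The median absolute log2 difference was 1.74 over the 4 genes and 0.33 over all probe sets tested. Each probe set leaves the fit 1 residual degree of freedom, made of the difference between the genotypes' SD to LD folds, and 8.29 more come from a variance trend over all probe sets. Without that trend the fit called 0 probe sets (5388 with an unadjusted p under 0.05), and the adjusted p of the 4 genes was 0.214 to 0.217.

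**Figure D1:**
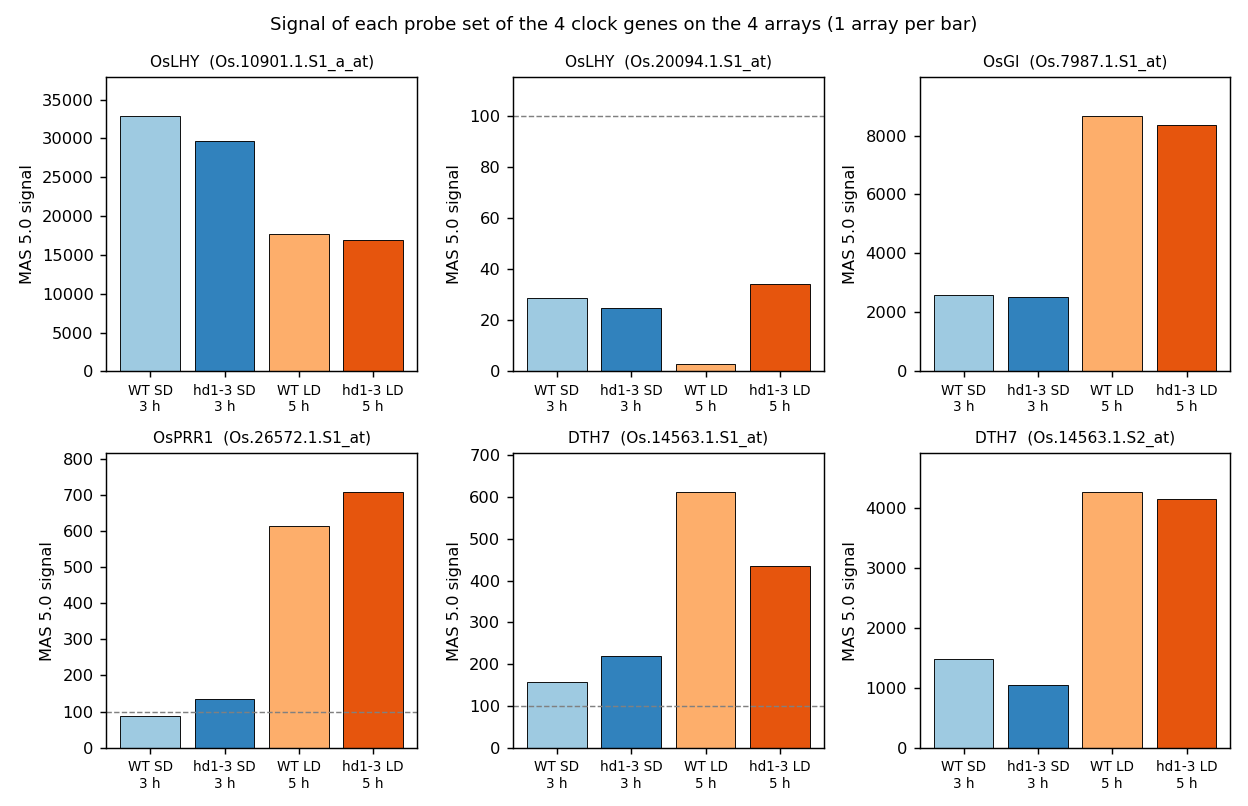
Linear signal (y axis, arbitrary units, own scale per panel) of the 6 probe sets of *OsLHY*, *OsGI*, *OsPRR1* and *DTH7* on the 4 arrays, 1 bar per array, with the hour of collection after light; the dashed line marks 100 where the scale allows. The main *OsLHY* probe set goes from 32944 in wild type under SD to 17724 under LD condition, the *OsGI*, *OsPRR1* and *DTH7* probe sets are higher on both LD arrays, and the second *OsLHY* probe set stays below 100.

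*OsLHY* is the morning MYB gene of the loop. Its SD signals were 32944 for wild type and 29613 for the mutant, and its LD signals, in that order as in all pairs of signals below, were 17724 and 16865. Both SD signals were above both LD signals, and the genotypes lay close together within each day length. The SD signal was 1.86-fold the LD signal in wild type and 1.76-fold in *hd1-3*, so the gene stayed below 2-fold in both. In limma the SD minus LD difference was 0.85 on the log2 scale (standard error 0.0963, 95% interval 0.64 to 1.07, adjusted p = 0.000633, 2 arrays per day length). Bright probe sets tended to be higher under SD condition on these arrays: at mean signals of 10000 or more the median log2 SD over LD was 0.22 for wild type and 0.20 for the mutant, and 29.2% of these probe sets were called higher under SD against 5.23% higher under LD condition. Within this range of 765 probe sets, 94.6% had a lower SD over LD fold than *OsLHY* in wild type and 93.2% in *hd1-3*. With quantile normalization the *hd1-3* log2 fold was 0.58 in place of 0.81, with the same direction. The call was lost when the wild type SD array (adjusted p = 0.0703), the wild type LD array (0.0557) or the *hd1-3* LD array (0.0615) was left out.

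The second probe set of *OsLHY* had signals of 28.7 and 24.8 under SD, against 2.99 and 34.2 under LD condition. All 4 are below 100, so it did not enter the test.

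*OsGI*, the rice GIGANTEA gene, whose product carries clock timing to *Hd1*, gave 2598 and 2536 under SD, against 8678 and 8369.7 under LD condition. The LD arrays were more than 3-fold above the SD arrays, and the genotypes were nearly equal within each day length. The LD signal was 3.34-fold the SD signal in wild type and 3.30-fold in *hd1-3*, and these 2 log2 folds, -1.74 and -1.72, differed by 0.02. The limma difference of SD minus LD was -1.73 on the log2 scale (standard error 0.122, 95% interval -2.01 to -1.46, adjusted p = 7.07e-05), the 54th smallest p of the 28133 probe sets. Among the 1210 probe sets with a mean signal of 5000 to 10000, only 0.496% had a lower SD over LD fold in wild type and 0.744% in *hd1-3*, and 10.2% were called higher under LD condition. With any 1 array left out the adjusted p was 0.0192 to 0.0365.

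*OsPRR1*, the rice counterpart of *TOC1*, an evening pseudo-response regulator of the *Arabidopsis* clock, had the largest SD to LD difference of the 4 genes. Its signals were 86.5 and 135 under SD, against 613 and 708 under LD condition. Both LD signals were well above both SD signals, 1 of which was below 100. The LD signal was at least 6.13-fold the SD signal in wild type, with the signal under 100 raised to 100, and 5.22-fold in *hd1-3*. The limma difference was -2.60 on the log2 scale (standard error 0.249, 95% interval -3.16 to -2.04, adjusted p = 0.000286), and 0.800% of all probe sets tested had a larger difference in either direction. The call was lost when the wild type SD array (adjusted p = 0.0533) or the *hd1-3* LD array (0.0554) was left out.

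*DTH7*, a pseudo-response regulator gene with a CCT domain that delays heading under LD condition, was measured by 2 probe sets that gave the same direction between the day lengths. The brighter one gave 1483 and 1043 under SD, against 4266 and 4147 under LD condition, with both LD arrays above both SD arrays. The LD signal was 2.87-fold the SD signal in wild type and 3.97-fold in *hd1-3*. The limma difference was -1.76 on the log2 scale (standard error 0.158, 95% interval -2.11 to -1.40, adjusted p = 0.000206, and 0.0363 to 0.0466 with any 1 array left out).
The second probe set of *DTH7* gave 157 and 219 under SD, against 612 and 436 under LD condition. The LD signal was 3.89-fold the SD signal in wild type and 1.99-fold in *hd1-3*, so that the larger fold was in wild type here and in *hd1-3* on the brighter probe set. This difference of fold between the genotypes was 0.97 on the log2 scale on the second probe set and -0.47 on the brighter one, against standard deviations of 0.67 and 0.39 over probe sets of the same ranges of signal. No test of it was possible with 1 array per group. The limma difference between the day lengths was -1.47 on the log2 scale (standard error 0.275, adjusted p = 0.00754), and the call was lost when any 1 array was left out (wild type SD 0.160, *hd1-3* SD 0.0895, wild type LD 0.191 and *hd1-3* LD 0.0825).

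On the main probe sets, 3 of the 4 genes (*OsGI*, *OsPRR1* and *DTH7*) were above 2-fold higher under LD condition in each genotype. Over all probe sets with at least 1 of the compared arrays at 100, the share above 2-fold higher under LD condition was 8.39% for wild type, 7.56% for the mutant and 3.12% for both at once.

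**Figure D2:**
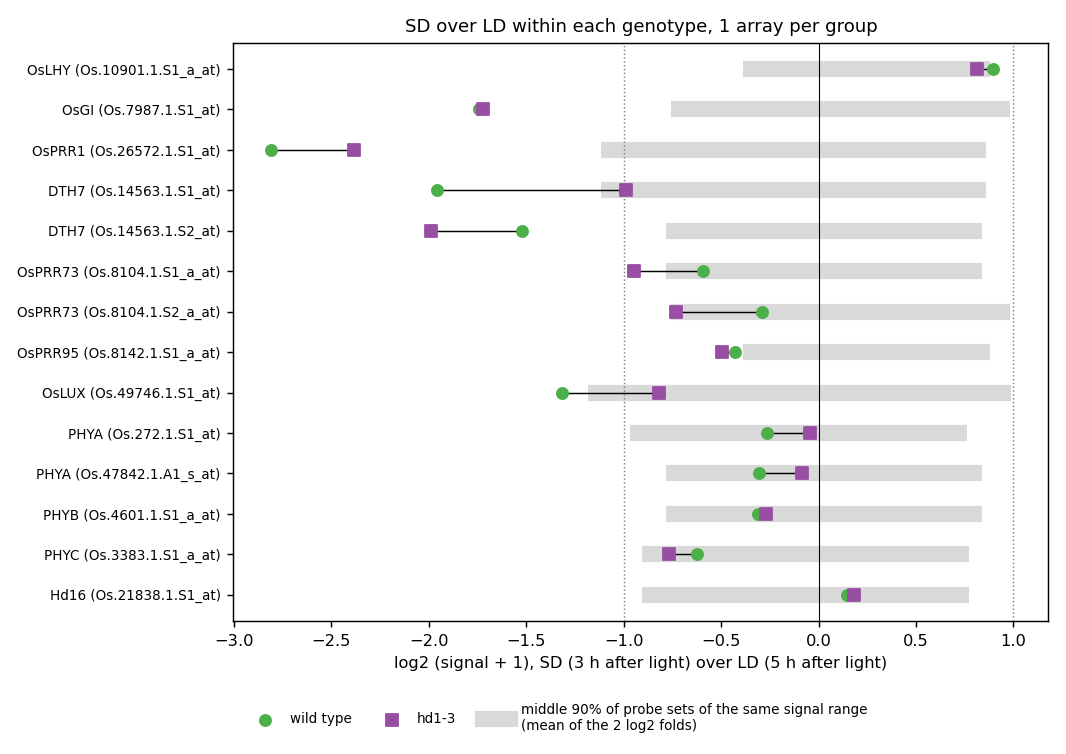
Log2 of signal + 1 under SD over LD condition (x axis) in wild type (circles) and *hd1-3* (squares), 1 array per group, for the clock and light input probe sets with at least 1 signal of 100 or more; grey bars span the middle 90% of the mean of both folds over probe sets of the same signal range and dotted lines mark 2-fold. *OsGI* (-1.74 and -1.72), *OsPRR1* (-2.81 and -2.38) and the brighter *DTH7* probe set (-1.52 and -1.99) lie left of their grey bars. So does the further clock gene *OsPRR95* (-0.43 and -0.49), closer to its bar, and *OsLHY* (0.89 and 0.81) lies near the right end of its own. The second *DTH7* probe set lies left of its bar in wild type (-1.96) but within it in *hd1-3* (-0.99). The bars are for the mean of both folds, not for a fold in 1 genotype.

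**Figure D3:**
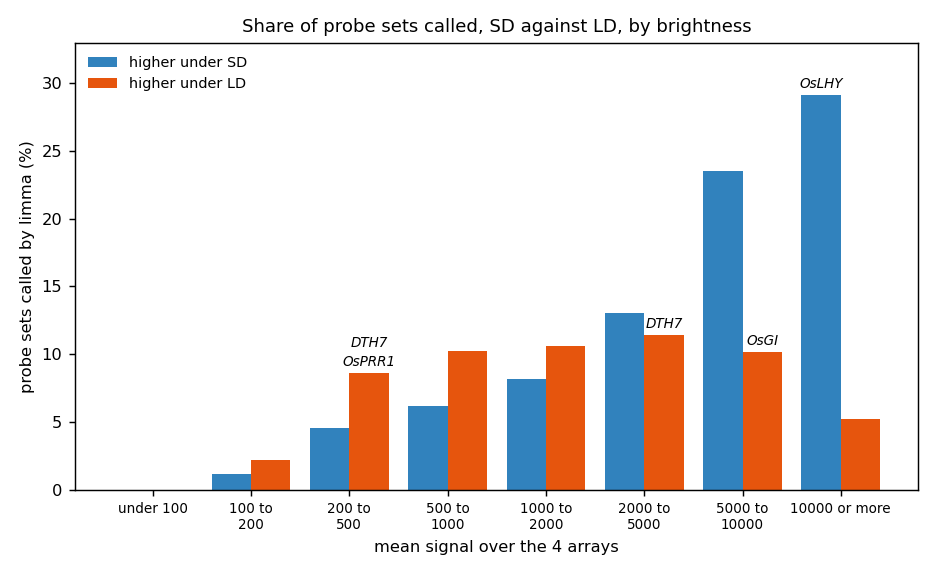
Share of probe sets (y axis, %) that limma called higher under SD (blue) or under LD condition (orange), by mean signal over the 4 arrays (x axis); gene names stand on the bar of their range and direction, *DTH7* once for each probe set. The share called higher under SD condition reaches 29.2% at signals of 10000 or more, where *OsLHY* lies, and the share called higher under LD condition is 8.64% at 200 to 500, where *OsPRR1* lies.

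Of 10 further clock genes looked up, 3 were measured by a named probe set, *OsPRR73*, *OsPRR95* and *OsLUX*. Of these, 2 passed the test, both higher under LD condition, and 1 did not, beside 13.6% called over all probe sets. Bright probe sets were called more often: 33.7% at mean signals of 5000 to 10000 (*OsPRR73*) and 34.4% at 10000 or more (*OsPRR95*). In these ranges 10.2% and 5.23% were called higher under LD condition. The median log2 difference of the 3, SD minus LD, was -0.51, beside -0.05 over all probe sets tested. *OsPRR95*, a pseudo-response regulator gene, had signals of 10957 and 9421 under SD, against 14733 and 13268 under LD condition, a limma difference of -0.46 on the log2 scale (standard error 0.106, adjusted p = 0.0195). The pseudo-response regulator gene *OsPRR73*, the closest relative of *DTH7* on this list, had signals of 8446 and 6380.3 under SD, against 10343 and 10594 under LD condition on its brighter probe set (log2 difference -0.51, standard error 0.132, adjusted p = 0.0317), and -0.77 on the other (standard error 0.151, adjusted p = 0.00949). *OsLUX*, named *PCL1* in the gene table, is the rice counterpart of an *Arabidopsis* evening complex gene. It had 85.2 and 112 under SD, against 213 and 199 under LD condition, and its log2 difference of -1.07 did not pass (standard error 0.363, adjusted p = 0.0882). The call of *OsPRR73* on its brighter probe set was lost with no filter on dim probe sets (limma adjusted p = 0.0512), with scaling to bright probe sets (0.0560), without the genotype term (0.138), without the trend (0.319) and with any 1 array left out (0.0947 to 0.367). That of *OsPRR95* was lost with no filter (0.0587), without the genotype term (0.105), without the trend (0.286) and with any 1 array left out (0.140 to 0.386).

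Of 8 genes of light perception and signalling looked up, 4 were measured, and 1 of them, *PHYC*, a phytochrome gene, passed the day length test, where 13.6% of all probe sets did. By mean signal, 18.8% passed at 1000 to 2000 (*PHYC* and *Hd16*) and 24.5% at 2000 to 5000 (*PHYA* and *PHYB*), so 1 of 4 is near these shares. The signal of *PHYC* was 1657 and 1339 under SD, against 2557 and 2283 under LD condition, a limma difference of -0.70 on the log2 scale (standard error 0.145, adjusted p = 0.0126). The *PHYC* call was lost without the genotype term (limma adjusted p = 0.0840), without the trend (0.230) and with any 1 array left out (0.128 to 0.304). The other 2 phytochrome genes did not pass: *PHYA* had a log2 difference of -0.20 (95% interval -0.52 to 0.13) and *PHYB* of -0.29 (-0.60 to 0.02). *Hd16*, a casein kinase I gene that delays heading, had 0.17 (-0.18 to 0.51). The median of the 4 was -0.24, against -0.05 over all probe sets tested.

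Between the genotypes, 0 of the 4 clock genes were called by limma with day length as a term, where 2.07% of all probe sets were. None had an unadjusted p under 0.05, the lowest being 0.116 (limma, *DTH7*). None of the 4 main probe sets was above 2-fold either way, while over all probe sets with at least 1 of the compared arrays at 100 this share was 9.94% under SD and 8.39% under LD condition. The median absolute log2 difference was 0.19 over the 4 genes and 0.21 over all probe sets tested. For *OsGI* the *hd1-3* minus wild type difference was -0.04 on the log2 scale (95% interval -0.32 to 0.23, adjusted p = 0.931), and for *OsLHY* -0.11 (-0.33 to 0.10, adjusted p = 0.723). *OsPRR1* had 0.42 (-0.14 to 0.98, adjusted p = 0.580), with a log2 fold of 0.21 under LD condition and a wild type signal below 100 under SD condition. With 1 array left out, 1 genotype had only 1 day length and the day length term was dropped. The genotype difference then held part of the SD to LD difference and took both signs for each gene. It was -0.56 to 0.33 for *OsLHY*, -0.91 to 0.83 for *OsGI*, -0.98 to 1.83 for *OsPRR1* and -1.27 to 0.72 for *DTH7*. These ranges therefore do not measure the precision of the genotype difference.

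*DTH7* had log2 folds of *hd1-3* over wild type of -0.51 under SD and -0.04 under LD condition on its brighter probe set (limma difference -0.27, 95% interval -0.63 to 0.08, adjusted p = 0.566). On its second probe set they were 0.48 and -0.49 (limma difference -0.01, -0.62 to 0.61, adjusted p = 0.997), so the 2 probe sets disagreed in sign under SD condition. Under SD condition *OsPRR73* had -0.40 and -0.43 on its 2 probe sets and *OsPRR95* -0.22, and under LD condition 0.03, -0.08 and -0.15. The other way under SD condition were *OsPRR1* (0.64) and *OsLUX* (0.39), each with a wild type signal below 100. The main probe sets of the light input genes had -0.31 (*PHYC*), -0.21 (*PHYB*), 0.13 (*PHYA*) and 0.26 (*Hd16*) under SD condition. None of the further clock and light input genes was called between the genotypes. The ratio of the 3′ over the 5′ signal of a GAPDH control set, a sign of RNA quality, was 1.64 (SD) and 1.48 (LD) for wild type and 4.16 (SD) and 4.25 (LD) for *hd1-3*. The same ratio was 4.55 to 5.02 for actin and 1.42 to 1.69 for cyclophilin over the 4 arrays, with no such gap between the genotypes, and a second, dimmer GAPDH set had both its lowest (1.05, SD) and its highest ratio (8.68, LD) in *hd1-3*. The part of RNA quality in these values was not tested.

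**Figure D4:**
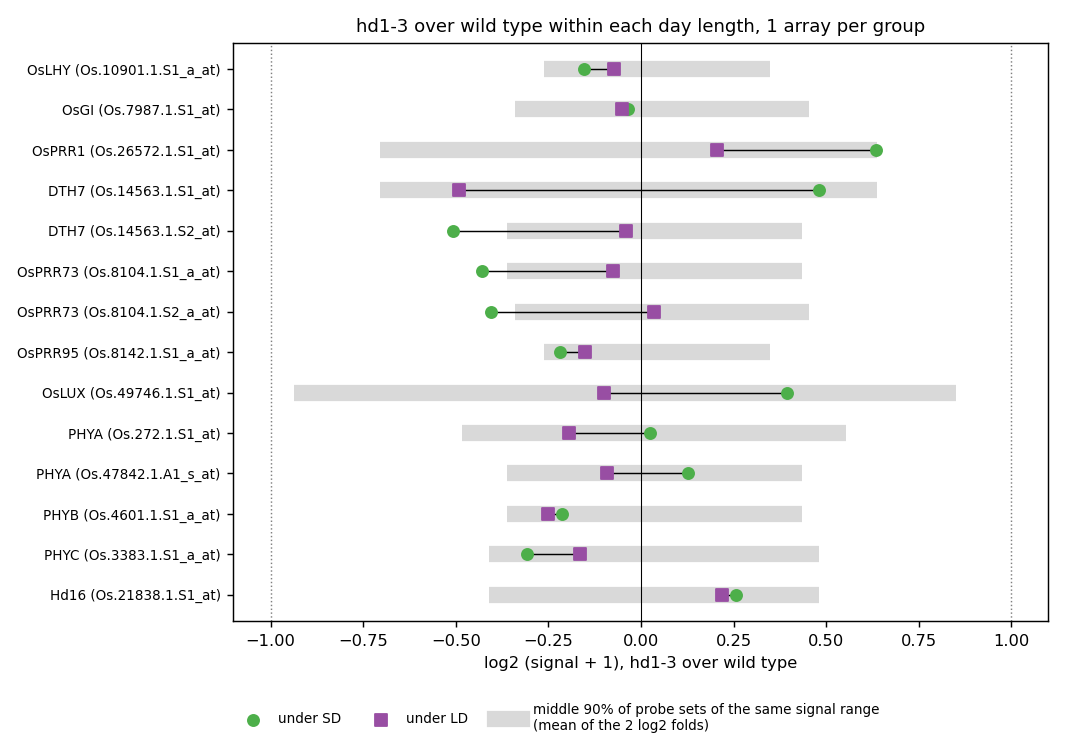
Log2 of signal + 1 in *hd1-3* over wild type (x axis) under SD (circles) and LD condition (squares), 1 array per group, for the same probe sets; grey bars span the middle 90% of the mean of both folds over probe sets of the same signal range and dotted lines mark 2-fold. Every point lies within 2-fold, and *OsGI* lies near 0 (-0.04 and -0.05). The brighter *DTH7* probe set (-0.51) and both *OsPRR73* probe sets (-0.43 and -0.40) are left of their bars under SD condition. *OsPRR1* (0.64) is at the right end of its bar under SD condition. The bars are for the mean of both folds, not for a fold under 1 day length.

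Patterns over the 4 arrays were compared by the root mean square difference of log2(signal + 1), centred on the mean of the 4 arrays. Among the main probe sets of the 4 genes, *OsGI* and *DTH7* were nearest to each other (0.168), *OsGI* and *OsPRR1* stood at 0.502, and *OsLHY* and *OsPRR1* were farthest apart (1.75). Over 15157 other named probe sets with all signals at 100 or more, the one most like *OsLHY* was *PDX12* (0.0155), a gene of the vitamin B6 biosynthesis family, with signals of 19865 and 18098 under SD and of 10533 and 10069 under LD condition. *OsERdj3A*, a DnaJ cochaperone gene (0.0248), LOC4337297 (0.0264), *OsPEX11-4*, a peroxisome division gene (0.0268), and LOC4324053 (0.0287) came next.
Nearest to *OsGI* were LOC4333650 (0.0253), LOC4336283 (0.0599), LOC4328440 (0.0653), LOC4324718 (0.0753) and LOC4325906 (0.0762). Nearest to *DTH7* were LOC4344860 (0.0251), LOC4324781 (0.0553), LOC4335549 (0.0720), LOC4325305 (0.0932) and LOC4350249 (0.0963).
*OsPRR1* had no neighbour as close as those of *OsLHY*, but its own wild type SD signal of 86.5 was below the 100 required of neighbours. Its range of signal, 200 to 500, also had a larger standard deviation of the change of fold between genotypes (0.67) than that of *OsLHY* (0.30). The nearest were LOC4328676 (0.0950), *OsJAZ8* (0.109), a gene of the jasmonate repressor family with signals of 1085 and 1745 under SD and of 7092 and 7479 under LD condition, LOC4337868 (0.132), LOC4333206 (0.176) and LOC4341305 (0.186). Over only 4 arrays in 2 day lengths, many probe sets have such patterns, and ranking by Pearson r in place of this measure kept 0 of the 5 names for *OsLHY*, *OsGI* and *OsPRR1* and 2 of 5 for *DTH7*.

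**Figure D5:**
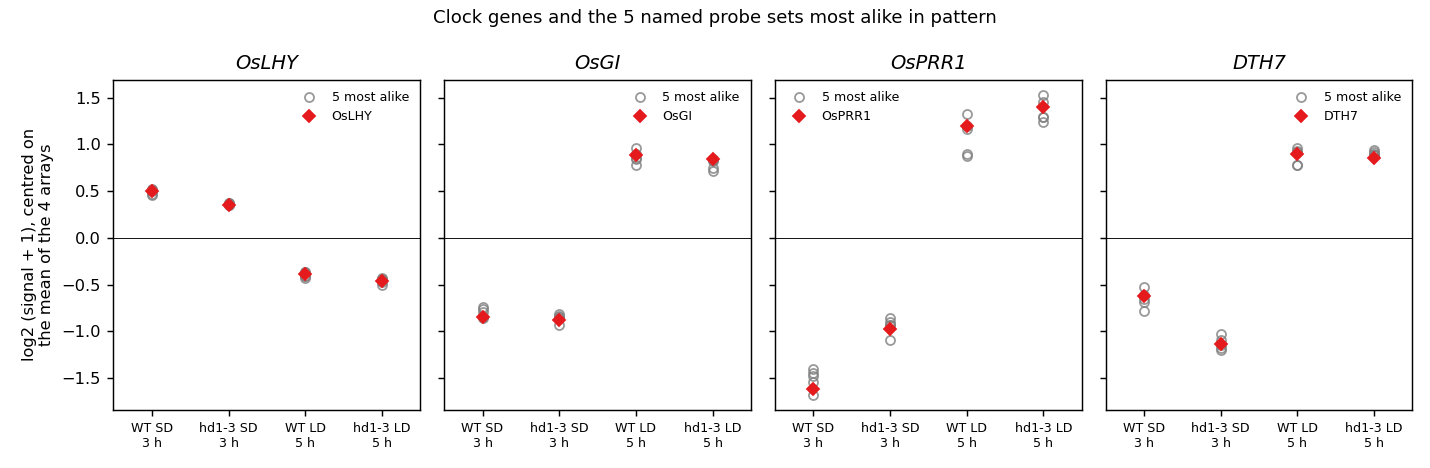
Log2 of signal + 1 on each array (x axis, with the hour of collection after light), centred on the mean of the 4 arrays (y axis), for the main probe set of each clock gene (diamonds) and its 5 most alike named probe sets (open circles). The SD arrays are above 0 for *OsLHY* and below 0 for *OsGI*, *OsPRR1* and *DTH7*, and the circles spread most around *OsPRR1* (root mean square differences of 0.0950 to 0.186).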

How the data were processed

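Biotinylated leaf RNA of wild type Zhonghua11 and *hd1-3* under SD and LD condition was measured on 4 Affymetrix Rice Genome Arrays. The authors deposited MAS 5.0 signals, which are linear intensities, 1 for each probe set on each array. The target value and software release used are not known here. From the values, each array has a mean of 500.1 after 2% is trimmed from each end. No detection calls were used, and 187 control probe sets were removed. The number of arrays limits the precision.

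Limma 3.58.1 in R 4.3.3 (lmFit, eBayes with trend) was fitted to log2(signal + 1) with day length and genotype as terms, using the 28133 probe sets that reached 100 on any array, and p-values were adjusted over all of them (Benjamini-Hochberg). Arrays of both genotypes served as repeats of a day length, so a gene that responds differently in *hd1-3* counts as noise. The added 1 shrinks folds of dim signals. Folds within a genotype or day length have 1 array per group and no test. The fit was checked on simulated data in which the noise depended only on the range of mean signal. That check cannot show how well single probe sets follow the variance trend. Genes were named by the platform table (22436 probe sets with 1 gene, 95 with several) through RefSeq gene names of ASM3414082v1, and the probe set with the highest mean signal stands for a gene. The members and gene lists were chosen with earlier results of these data known. The text names the members, the measured genes of both lists and the 5 most alike probe sets per member. Alternatives tried were quantile normalization, an added value of 32, scaling to bright probe sets, other filters, no second term, no trend, and each array left out. Python 3.11.15, pandas 2.3.3 and numpy 2.4.6 were also used. No probe, promoter or protein sequences were used here.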

Additional observations from a re-analysis of the deposited data

Results flagged for a closer look

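With 1 array per group, the following probe sets differed in opposite directions between the genotypes or the day lengths, and none of these differences was tested. The second probe set of *OsLHY*, below 100 on all arrays, had log2 SD over LD folds of 2.89 in wild type and -0.45 in *hd1-3*, a change of -3.34, and log2 folds of *hd1-3* over wild type of -0.20 under SD and 3.14 under LD condition, a change of 3.34. The second probe set of *DTH7* went from 0.48 to -0.49 in *hd1-3* over wild type between SD and LD condition (-0.97). The brighter *OsPRR73* probe set went from -0.40 to 0.03 (0.44), and *OsLUX*, whose wild type signal under SD condition was below 100, from 0.39 to -0.10 (-0.49). The 2 *PHYA* probe sets went from 0.03 to -0.20 and from 0.13 to -0.09 (-0.22 for both). Over probe sets of the same ranges of signal, the standard deviation of such changes was 0.53 and 0.39 for these *PHYA* probe sets. It was 2.28 for the *OsLHY*, 0.67 for the *DTH7*, 0.36 for the *OsPRR73* and 1.01 for the *OsLUX* probe set.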

How the results depend on the processing

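The directions of the SD minus LD differences of the 4 clock genes were the same under all 11 alternatives. Other filters, no genotype term and no trend could not change these differences, because all 4 arrays were kept with 1 per genotype and day length. Only the other alternatives could have changed a direction. Without the variance trend the differences were unchanged (0.85 for *OsLHY*, -1.73 for *OsGI*, -2.60 for *OsPRR1* and -1.76 for *DTH7*) but none passed (adjusted p = 0.214 to 0.217), and limma called 0 probe sets for day length (5388 with an unadjusted p under 0.05) and 0 for genotype (2560). The count for day length, 3831, was 1298 without the genotype term and 154 to 348 with 1 array left out. The count for genotype, 583, was 327 with a filter at 500, 53 without the day length term and 22 to 73 with 1 array left out. With 1 array left out, where the second term was dropped and the lone array of a group was assumed to vary like the others, the difference was 0.78 to 0.93 for *OsLHY* and -2.91 to -2.28 for *OsPRR1*, with 1 and 2 of 4 adjusted p-values under 0.05. With quantile normalization the log2 SD over LD of *OsLHY* in *hd1-3* was 0.58. The genotype difference of the 4 genes passed under none of the alternatives that kept all 4 arrays. With 1 array left out its sign turned for each gene, but 1 genotype then had only 1 day length and no day length term was fitted. The genotype difference then held part of the SD to LD difference, so these turns of sign cannot show how stable it is. Signals below 100 limit *OsPRR1* in wild type under SD condition and the second *OsLHY* probe set.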
